A study of Mus musculus with 16 samples.

Results

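The expression baseline of the whole mouse embryo at embryonic day 9.5 (E9.5) was described from the Kat6a+/+Kat6b+/+ embryos alone, which were chosen by their genotype labels and number 4 of the 16 embryos in the series. The remaining 12 embryos entered only the fits named here. They were 4 that carry a bacterial artificial chromosome transgene of the histone acetyltransferase gene Kat6b, labelled Kat6a+/+Tg(Kat6b) and called transgenic here, 4 that lack its paralogue Kat6a, labelled Kat6a-/-Kat6b+/+ and called null, and 4 with both changes, labelled Kat6a-/-Tg(Kat6b) and called null transgenic. All embryos were from a hybrid background of the FVB and BALB/c strains, untreated, and 1 library was made from the RNA of each whole embryo. Wild-type replicates 1 and 2 were males from litters 801 and 803, and replicates 3 and 4 were females from litters 2597 and 2598. Sex and pair of litters therefore cannot be told apart within the wild-type group. Each wild-type embryo came from a different litter, so the spread between them holds differences between litters as well as between littermates. The other genotypes each include littermates, so their spreads are not drawn from litters in the same way. All null embryos came from litters 801 and 803 and all transgenic embryos from litters 2597 and 2598. The null transgenic embryos came from other litters.

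At E9.5 the mouse embryo has turned, its heart beats, its forelimb buds have appeared and the neural tube is closing, while somites are still being added from the tail bud. Its blood is made almost wholly of large nucleated erythroid cells from the yolk sac that carry embryonic globins. Neurons have begun to leave the cell cycle in the cranial ganglia and the ventral neural tube, and the liver is only a bud of the foregut. Whole-embryo RNA adds all of these tissues together, so fewer cells of a type and less RNA per cell cannot be told apart in any value given here.

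The counts assigned to genes were 23224367, 18238659, 22514343 and 14407277 in replicates 1 to 4. Levels are given as RPKM, the reads of a gene relative to its length in kilobases and to its library's total after TMM scaling. A count of 0 allows up to 3 counts, which is between 0.130 and 0.206 RPKM for a gene of 1000 bases in these 4 libraries. Intervals of this kind cover counting error only. Of 26411 listed genes, 20199 had at least 1 count in 1 embryo, and 6212 genes (23.5%) had none in any. The 10 genes with the most counts held between 3.55% and 3.80% of the counts of an embryo, and the top 1000 held between 44.3% and 45.02%.

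Whole E9.5 embryos had 12109 genes (45.8%) at 1 RPKM or more in all 4 animals, and 13193 in at least 1. By the mean of the 4 embryos, 12647 genes reached 1 RPKM, 6727 reached 10 RPKM, 584 reached 100 RPKM and 22 reached 1000 RPKM. The 25 genes of highest mean RPKM together made up 11.3% ± 0.507 (SD, n = 4) of the summed RPKM. Protein-coding genes held 97.7% of counts, and 11967 of their 21030 members reached 1 RPKM. Of 3408 long non-coding RNA genes, 322 reached 1 RPKM and the class held 0.876% of counts. The 1000 most abundant genes held 53.8% ± 0.285 of the summed RPKM.

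**Figure D1:**
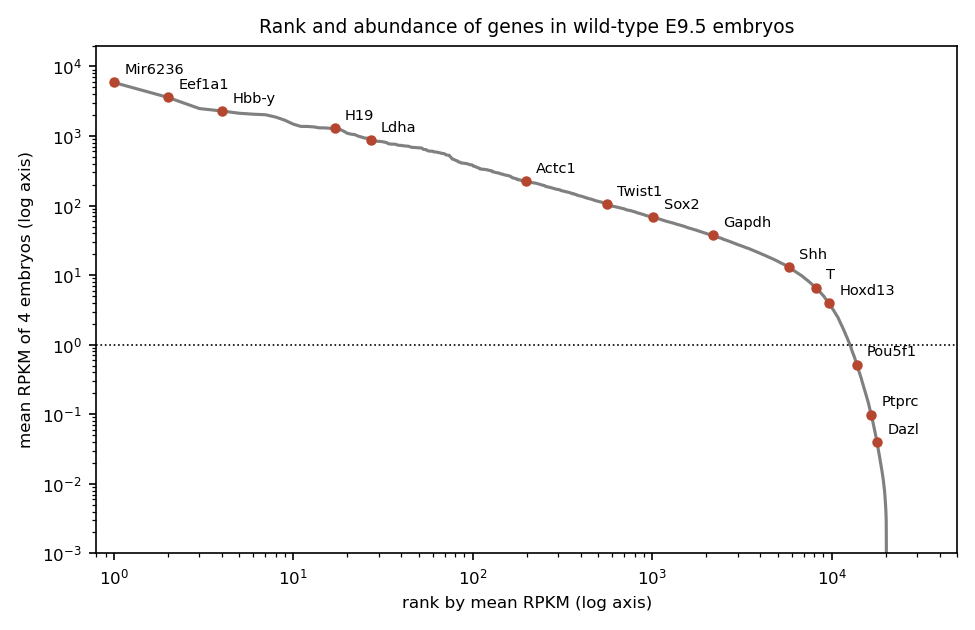
Mean RPKM of the 4 wild-type embryos (y, log axis) against rank of the gene (x, log axis) for every gene with a count, with the 1 RPKM level dotted and 15 genes marked. Translation and globin genes (Eef1a1, Hbb-y) sit at the top, region-restricted regulators (Shh, T, Hoxd13) lie between 1 and 15 RPKM, and germ cell and leukocyte genes (Dazl, Ptprc) lie below 1 RPKM.

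The most abundant named messenger RNA was that of Eef1a1 (Entrez Gene 13627, chromosome 9 of GRCm39 from 78384916 to 78396778), which encodes the elongation factor that brings aminoacyl-tRNA to the ribosome. It was at 3709, 3576, 3633 and 3453 RPKM in replicates 1 to 4. Next came Cox1 of the mitochondrial genome (listed as COX1, 2480 ± 309 RPKM) and the embryonic globins described later. Hsp90ab1, a cytosolic chaperone, was at 2021 ± 26.7 RPKM. Tubb5, a beta-tubulin, was at 1309 ± 11.0 RPKM and Actb, beta-actin, at 1308 ± 54.2 RPKM (SD, n = 4). The long non-coding RNA H19, which is transcribed from the maternal allele, was the 17th gene by rank at 1281, 1263, 1330 and 1262 RPKM.

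Glycolytic genes were abundant but very unequal. Ldha, which converts pyruvate to lactate, was at 868 ± 122 RPKM, Pkm at 671 ± 56.1 and Tpi1 at 387 ± 45.6. Gapdh, often used as a reference gene, was listed at only 37.9, 41.3, 31.8 and 37.7 RPKM, below 10 of the other 15 genes of the list. Gapdh has many processed copies in the mouse genome, and how reads shared between copies were counted is not given in the sources used here, so its level is uncertain. Ribosomal protein genes showed the same limit more directly. Rps6, a protein of the small subunit, had 103 CPM (reads relative to the library total, not to length) against 804 for the listed pseudogene Rps6-ps4, so 88.6% of their joint counts were on the pseudogene. The share on the pseudogene was 77.0% for Rpl14 and 93.5% for Rps18, and 28.2% for Rps15a, with 2 listed pseudogenes. Over the class, 85 of 88 cytosolic ribosomal protein genes reached 10 RPKM, and they held 1.77% ± 0.0518 of counts, which leaves out reads on such copies.

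The first-ranked entry was not a messenger RNA but Mir6236, a 123-base microRNA gene on chromosome 9 (GRCm39, from 110110355 to 110110477), at 5600, 6890, 5511 and 5533 RPKM. It held only 0.0724% of counts, and its rank comes from dividing by this short length. Mir682, a 96-base gene on chromosome 13, ranked 8th at 1998, 1773, 1805 and 1893 RPKM. MicroRNAs are short RNAs cut from a hairpin precursor that pair with messenger RNAs through their seed, bases 2 to 8. The study describes no small RNA library, so the values here do not measure mature microRNAs. Of 1227 microRNA genes by RefSeq class, 107 reached 1 RPKM and only 7 reached 50 RPKM. Mature sequences were found for 6 of these 7 in the RefSeq tables of GRCm38.p6, and those of the 5 entries that share a sequence with another gene or lead the ranking are printed 5′ to 3′ with the seed in capitals.
mmu-miR-6236 (chr9:110281353-110281371, plus strand): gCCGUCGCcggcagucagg
mmu-miR-682 (chr13:75645119-75645139, plus strand): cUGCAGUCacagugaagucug
mmu-miR-692 of Mir692-3 (chr13:74407121-74407141, plus strand): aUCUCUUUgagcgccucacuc
mmu-miR-692 of Mir692-2 (chr4:125504805-125504825, plus strand): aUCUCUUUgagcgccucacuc
mmu-miR-7652-5p (chr11:55501226-55501247, plus strand): uAAGGGCAcagggauuucaggc
mmu-miR-7652-3p (chr11:55501261-55501281, plus strand): uCUGGCUUuccuguggcuucu

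Some of these sequences also lie in transcripts of other genes. The whole mature sequence of miR-682 occurs in transcripts of 13 genes of the GENCODE annotation, of which the highest expressed with a row of its own here was Rpl37a, a protein of the large ribosomal subunit. The 96-base hairpin shares an unbroken run of 48 bases with Rpl37a transcripts and of all 96 with the pseudogene Gm4149. In CPM, Mir682 had 179 and Rpl37a itself 48.9. The sequence of miR-692 likewise lies within Ftl1, the ferritin light chain gene that stores iron, and within 17 annotated genes in all. Mir692-3 and Mir692-2, which share the seed UCUCUUU, had 13.8 and 6.82 CPM against 385 for Ftl1. Both arms of miR-7652, from a gene at 61.6 RPKM, lie within G3bp1, which encodes a stress granule protein and had 548 CPM. The sequence of miR-6236 was found in no other GENCODE transcript, and no sequences outside that annotation were searched. Which locus gave the reads was not tested.

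Embryonic globin genes ranked among the 10 highest of all genes. Hbb-y, the embryonic beta-like globin (Entrez Gene 15135, chromosome 7 of GRCm39 from 103500956 to 103502423), was the 4th gene of all, at 1710, 2738, 2682 and 2027 RPKM in replicates 1 to 4. Hba-x, the embryonic alpha-like globin, was at 1705, 2671, 2363 and 1754 RPKM, and Hbb-bh1, the other early beta-like globin, at 1374, 2138, 1770 and 1445 RPKM. In each of these genes replicates 2 and 3 were above replicates 1 and 4. The alpha globins Hba-a1 and Hba-a2, which are also used in adult blood, were at 820 ± 183 and 534 ± 99.9 RPKM, but are near-identical copies whose reads may have been split. The adult beta globins were low, Hbb-bs at 5.50, 8.70, 19.2 and 12.3 RPKM and Hbb-bt at 2.89, 4.37, 9.47 and 5.55 RPKM. For these the highest embryo was replicate 3 rather than 2.

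All 15 genes of the primitive erythroid list reached 1 RPKM, with a list median of 22.6 RPKM against 0.732 over all 26411 genes. Alas2, the first enzyme of erythroid haem synthesis, was at 17.0, 30.6, 24.8 and 18.2 RPKM. Slc4a1, the band 3 anion exchanger of the red cell membrane, was at 17.5, 31.4, 26.7 and 20.4 RPKM. The transcription factors that direct the lineage were lower, Klf1 at 5.47 ± 1.20 RPKM and Gata1 at 2.67 ± 0.361 RPKM (SD, n = 4). Other blood lineages were scarce. Of the 14 macrophage genes only Cd68, which lies in lysosomes of other cells too, reached 1 RPKM (2.71 ± 0.478), while Csf1r was at 0.344 ± 0.154, Ptprc at 0.0987 ± 0.0377 and Adgre1 at 0.00686 RPKM, with counts in replicate 3 alone. Of 11 genes for blood progenitors and megakaryocytes 6 reached 1 RPKM, led by Cd34 (30.8 ± 2.48), which endothelium shares, and the platelet chemokine Pf4 was at 5.56 ± 0.932 RPKM.

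Heart genes, led by those of the sarcomere, were well above 1 RPKM. Actc1, cardiac alpha-actin, was at 204, 230, 227 and 230 RPKM, and the atrial light chain Myl7 at 134, 135, 109 and 136 RPKM. Troponin genes were more level, with Tnnt2 at 59.2 ± 2.03 and Tnni1 at 46.5 ± 0.468 RPKM. Both cardiac myosin heavy chains were present at similar levels, Myh6 at 37.8 ± 2.03 and Myh7 at 35.5 ± 1.00 RPKM. The cardiac transcription factors lay lower, Gata4 at 8.33 ± 1.68, Nkx2-5 at 7.01 ± 1.27 and Tbx5 at 4.37 ± 0.395 RPKM. Of the 18 genes 17 reached 1 RPKM, and the giant sarcomere gene Ttn was at 0.352 ± 0.0613 RPKM.

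Endothelium was represented by all 14 of its genes. Plvap was highest at 33.5 ± 1.28 RPKM, followed by the junctional cadherin Cdh5 at 24.1 ± 1.01, and the VEGF receptor Kdr was at 14.3 ± 0.762 RPKM. Sox17, an arterial regulator, was the lowest of them at 1.89 ± 0.202 RPKM.

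**Figure D2:**
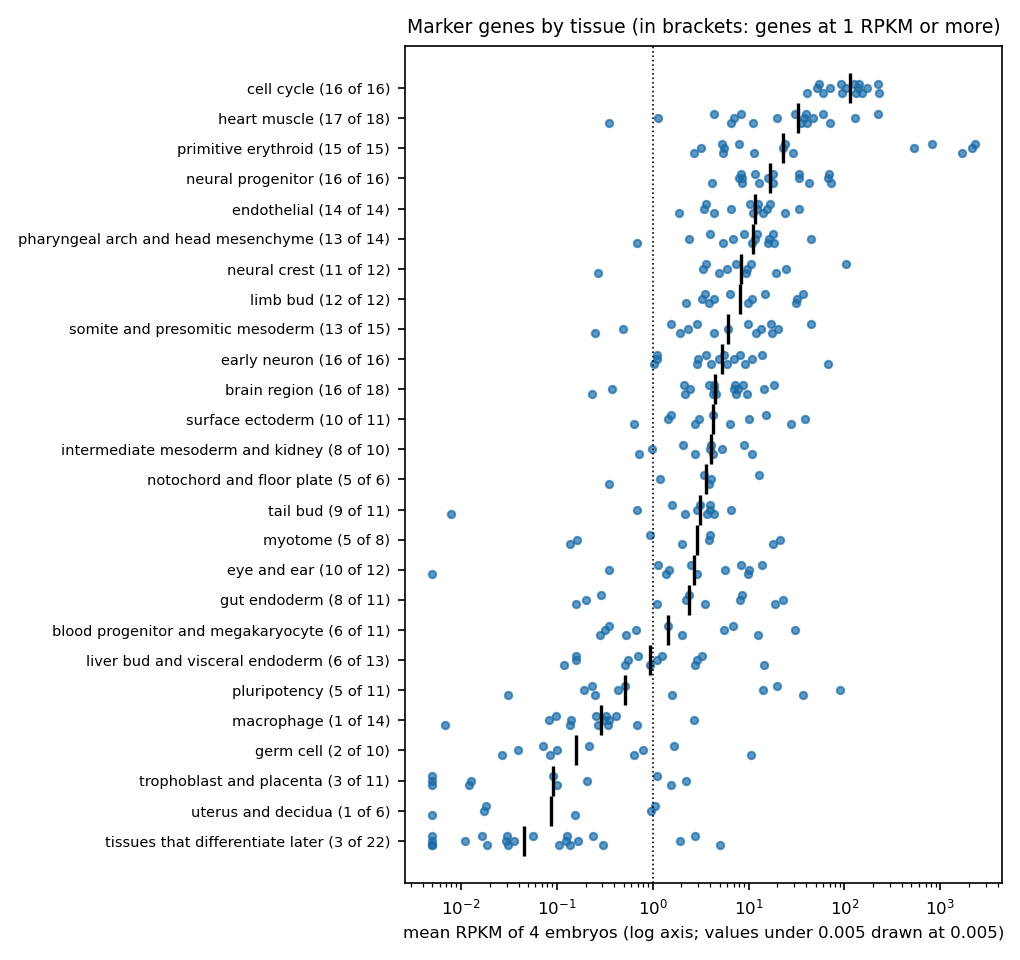
Mean RPKM of the 4 wild-type embryos (x, log axis) for each gene of 26 lists (y, ordered by the list median, which is the black bar), with the number of genes at 1 RPKM or more in brackets and that level dotted. Cell cycle, heart and erythroid lists stand highest. Germ cell, trophoblast, decidua, later-differentiating, macrophage, pluripotency, and liver bud and visceral endoderm lists have medians below 1 RPKM.

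Neural progenitor and early neuron genes were both detected in full. Nes, an intermediate filament of neuroepithelial cells, was at 79.1, 63.7, 74.6 and 72.9 RPKM, and Sox2, which keeps cells as progenitors, was at 67.7 ± 1.84 RPKM. All 16 progenitor genes reached 1 RPKM, with a median of 16.9 RPKM. All 16 neuronal genes also did, with a median of 5.29 RPKM. Among them Tubb3, the neuronal tubulin, was at 71.0, 54.1, 67.2 and 78.2 RPKM, Stmn2 at 15.2, 9.80, 12.7 and 17.0, and Isl1, a motor and sensory neuron regulator, at 10.8, 9.59, 11.1 and 12.1 RPKM.

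Regional brain genes formed a graded set. The forebrain genes Lhx2 (18.3 ± 0.980 RPKM) and Otx2 (14.6 ± 1.15) stood above the midbrain and hindbrain border genes Gbx2 (8.69 ± 1.63), Fgf8 (7.77 ± 1.30) and Wnt1 (4.56 ± 0.159). Egr2, which marks narrow stripes of the hindbrain, was at 0.235 ± 0.0262 RPKM. Such levels depend on the share of the embryo that expresses the gene, which was not measured.

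Neural crest and head mesenchyme genes were nearly all detected. Twist1, a regulator of mesenchyme, was at 105 ± 3.44 RPKM, well above the more restricted crest genes Sox10 (9.65 ± 0.470) and Foxd3 (3.38 ± 0.231). Of 12 crest genes 11 reached 1 RPKM. In the head and pharyngeal arch list 13 of 14 did, led by Prrx2 at 45.2, 45.9, 44.1 and 44.5 RPKM.

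Somite genes spanned a similar range. Meox1, expressed through the somite, was at 45.7, 52.3, 40.4 and 39.7 RPKM and the sclerotome gene Pax1 at 13.3 ± 1.78 RPKM. Among segmentation genes Lfng (20.4 ± 1.40 RPKM) and Dll3 (11.9 ± 0.865), of the Notch pathway, were higher and more level between embryos than the next 3. Msgn1, which acts in presomitic mesoderm, was at 7.34, 5.82, 3.14 and 1.21 RPKM, and Hes7, which oscillates as somites form, at 1.24, 2.79, 2.55 and 1.10 RPKM. Mesp2, expressed in a brief stripe before each somite, was at 0.157, 0.256, 1.03 and 0.495 RPKM.

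Of 8 genes of the first skeletal muscle 5 reached 1 RPKM. Acta1, skeletal alpha-actin, was highest at 20.5, 20.7, 25.5 and 18.6 RPKM. Myog was at 3.92 ± 0.919 and Myf5 at 2.01 ± 0.422 RPKM, whereas Myod1, which comes on later in the trunk, was at 0.139 ± 0.124 RPKM with no count in replicate 2. Desmin (Des), a filament of heart and skeletal muscle alike, was at 17.9, 17.9, 17.7 and 17.9 RPKM.

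The lists for limb, kidney, gut and skin precursors all had genes above 1 RPKM, though which tissue gave the RNA was not tested. All 12 limb bud genes did, among them the forelimb gene Tbx5, the hindlimb genes Pitx1 (9.79 ± 1.32) and Tbx4 (2.22 ± 0.628) and the outgrowth signal Fgf10 (3.49 ± 0.361). In the intermediate mesoderm list 8 of 10 did, led by Six2 at 11.0 ± 1.39 RPKM. In gut endoderm 8 of 11 did, led by the epithelial genes Cldn6 (22.8 ± 3.06) and Epcam (18.8 ± 2.08), while Pdx1, which marks the pancreatic bud, was at 0.203 ± 0.0532 RPKM. In surface ectoderm 10 of 11 did, with Krt18 at 38.7 ± 4.32 and Krt8 at 27.8 ± 2.27 RPKM, but Krt14, a keratin of stratified skin, was at 0.647 ± 0.129 RPKM. Of all 55 keratin genes 6 reached 1 RPKM.

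Genes of tissues that arise later, and of extraembryonic and maternal tissues, were at or near 0 for the most part. Of 22 genes for later tissues 3 reached 1 RPKM, namely Krt10 (4.98 ± 0.967), Mbp (2.80 ± 0.134) and Gcg, which encodes glucagon (1.92 ± 0.680). Ins2, Cd3e, Cyp3a11 and Adipoq had no count in any embryo, and the muscle creatine kinase Ckm was at 0.0308 RPKM. None of 1125 olfactory receptor genes and none of 360 vomeronasal receptor genes reached 1 RPKM.

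Of 11 trophoblast genes 3 did, the highest being Hsd3b6 at 2.23 ± 0.492 RPKM. Tpbpa, Prl3d1 and Ctsq, which define placental trophoblast, had no count in any embryo. Of 6 decidua genes Ovgp1 did (1.06 ± 0.253 RPKM), and the defining decidual gene Prl8a2 had no count. Germ cell genes were as scarce: Ifitm3, which is not restricted to germ cells, was at 10.6 ± 0.811 RPKM, but Dppa3 was at 0.159, 0, 0.381 and 0.335 RPKM and Dazl at 0.0396 ± 0.0268 RPKM.

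The core pluripotency genes were below 1 RPKM, and 5 of the 11 genes of that list were above it. Pou5f1 was at 0.481, 0.648, 0.370 and 0.570 RPKM and Nanog at 0.192 ± 0.109 RPKM. Lin28a, an RNA-binding protein that blocks let-7 maturation, was at 94.3, 111, 79.5 and 76.3 RPKM, and Sall4 at 19.96 ± 3.05 RPKM.

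Hox genes, whose order along 4 clusters follows their order along the body axis, were nearly all on. Of 39 genes 35 reached 1 RPKM, and Hoxb9 was highest at 40.5 ± 1.80 RPKM. The 12 genes of paralogue groups 1 to 4 had a median of 12.2 RPKM and the 11 of groups 5 to 8 a median of 9.23 RPKM. The 16 genes of groups 9 to 13 had a median of 3.97 RPKM, and the 4 genes below 1 RPKM (Hoxc12, Hoxa13, Hoxb13 and Hoxc13) were all among them. Hoxd13 was at 4.72, 3.34, 3.82 and 3.89 RPKM, whereas Hoxb13 had counts in replicate 1 alone.

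Housekeeping classes set the scale of the embryo. Translation factors held 2.69% ± 0.0343 of counts, hnRNP and SR splicing factors 1.96% ± 0.0264, genes of the mitochondrial genome 1.46% ± 0.104 and globins 0.449% ± 0.0942 (SD, n = 4). All 16 cell cycle genes exceeded 40 RPKM, led by Rrm2 (229 ± 6.18) and Pcna (224 ± 6.99), with a median of 115 RPKM. Replication-dependent histone genes, whose messenger RNAs lack a poly(A) tail, were low beside them, with 28 of 67 at 1 RPKM and a maximum of 9.89 RPKM.

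Imprinted genes, expressed from 1 parental allele, had a list median well above that of all genes. After H19 came Mest (682, 665, 692 and 668 RPKM), Igf2, a fetal growth factor (416, 425, 435 and 429 RPKM), and Grb10, which restrains growth (370, 370, 369 and 351 RPKM). Of 25 genes 22 reached 1 RPKM, with a median of 42.1 RPKM and a median CV of 6.18%, against 6.33% over all genes at 1 RPKM. The CV falls with level, however, and its median was 4.63% over all genes between 10 and 100 RPKM.

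The 4 embryos were alike over most genes. Across the 12647 genes at 1 RPKM or more, Spearman's rho between a pair of embryos ran from 0.989 to 0.993 over genes, which are not independent replicates. The median absolute difference of a pair was between 0.0869 and 0.108 on the log2 scale, and between 135 and 194 genes differed by more than 2-fold. Replicates 3 and 4, both female, had the highest rho and the smallest median difference, whereas replicates 1 and 2, both male, had the fewest genes past 2-fold. In edgeR the common biological coefficient of variation, the spread beyond counting error, was 7.30% in wild type. It was 6.27% in null, 7.92% in transgenic and 6.47% in null transgenic embryos, groups that include littermates. The difference between genotypes was not tested.

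A chi-square test against counting error alone, with Benjamini-Hochberg adjustment, was passed by 5499 of 14928 genes with at least 10 counts on average (36.8%). The share grew with level, from 19.8% of tested genes between 0.1 and 1 RPKM to 44.1% between 10 and 100 RPKM and 77.4% between 100 and 1000 RPKM, and all 22 genes above 1000 RPKM passed. The median count of a gene also rose, from 13.8 in the first of these ranges to 6717 in the last. Without replicate 2 the number of genes varying beyond counting error was 3507. Among 8661 genes at 5 RPKM and 200 counts or more, the median coefficient of variation (CV, SD over mean of the 4 RPKM values) was 4.97%, and 115 genes (1.33%) exceeded 20%.

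**Figure D3:**
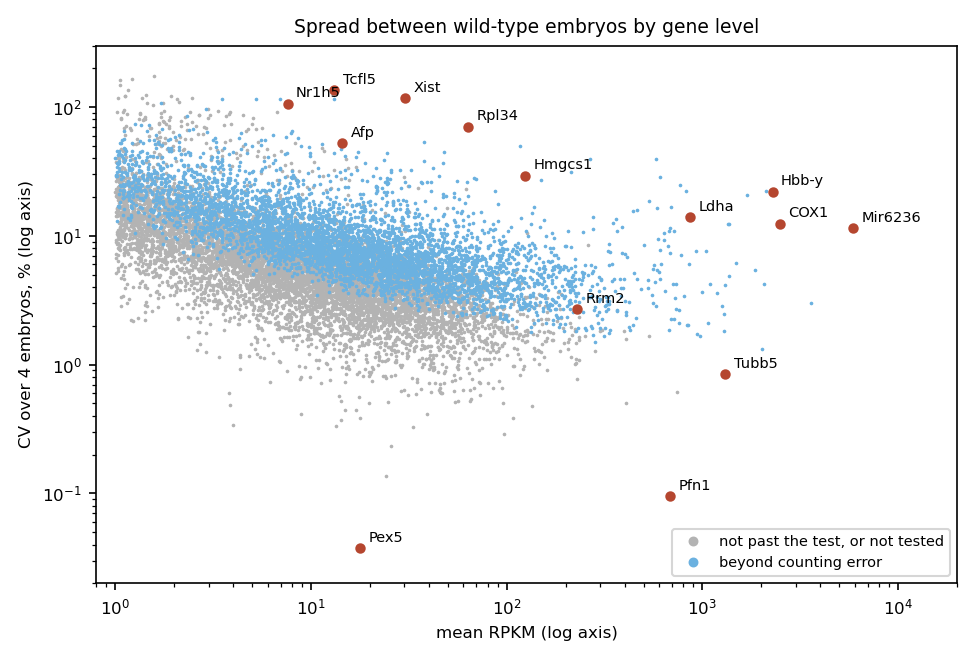
CV over the 4 wild-type embryos in % (y, log axis) against mean RPKM (x, log axis) for genes at 1 RPKM or more, in blue where the spread passed the chi-square test against counting error, with 14 genes marked. Among the marked genes Tcfl5 (136%), Xist and Nr1h5 stand highest and Pex5 (0.0378%) lowest.

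The gene with the largest CV was Tcfl5, a basic helix-loop-helix factor best known from the testis (chromosome 2 of GRCm39 from 180263529 to 180284556). It was at 5.63, 39.9, 1.73 and 5.41 RPKM, so replicate 2 alone was high, and its CV fell from 136% to 51.5% without that embryo. Xist and the Y-linked genes Eif2s3y, Kdm5d and Ddx3y followed, as sex differed between the embryos. Nr1h5, a nuclear receptor related to the bile acid receptor (chromosome 3 from 102846830 to 102871449), was at 13.5, 15.5, 0.644 and 0.677 RPKM, high in both males of litters 801 and 803 and low in both females.

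Afp, the alpha-fetoprotein of yolk sac and liver, was at 17.7, 14.6, 3.88 and 21.4 RPKM, and without the low replicate 3 its CV fell from 52.4% to 18.99%. Rpl34 was at 25.05, 25.6, 94.4 and 110 RPKM, but its pseudogene Rpl34-ps1 moved the other way (215, 190, 148 and 172 CPM), and the CV of the sum was 8.19% against 70.3% for the gene alone. Gm8615 had a CV of 43.4%, and 3.92% without replicate 3. Gm1943 had a CV of 47.0%, and 18.97% without replicate 1. Rpl26 had a CV of 49.96%, and 27.6% without replicate 1.

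At the other end, the messenger RNA of Pex5, the import receptor of peroxisomes, was at 17.8 RPKM in each embryo, a CV of 0.0378% that is below the counting error of its own counts. Pfn1, profilin, which binds actin monomers, was at 685, 684, 686 and 684 RPKM (CV 0.0946%). Nudt5, Med22, Mdh1, Smad3, Mocs2 and Tmem60 completed the 8 smallest, which lie at the edge of 8661 values and were chosen for that.

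In some lists the genes varied together between the embryos. The primitive erythroid genes had a median CV of 22.3% against 6.33% over all genes at 1 RPKM. Their median deviation from the mean of the 4 embryos, on the log2(RPKM + 0.1) scale used for all deviations, was −0.28, 0.36, 0.17 and −0.20 in replicates 1 to 4. In 12 of the 15 genes both replicates 2 and 3 were above both replicates 1 and 4, an order that 1799 of all 12647 genes at 1 RPKM showed (14.2%). Against counting error 14 of 15 passed, beside 36.8% of all genes tested, a share that was higher at the level of the globins. The list's summed RPKM had a CV of 21.3% in wild type, 25.2% in null, 10.3% in transgenic and 8.55% in null transgenic embryos. Only the wild-type embryos hold no littermates, and the difference was not tested.

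Neuronal and tail bud genes moved in opposite senses. Replicate 2 was the lowest embryo in 15 of the 16 early neuron genes, against 28.2% of all genes, with deviations of 0.06, −0.35, 0.14 and 0.17. Dcx, a microtubule protein of young neurons, was at 4.21, 1.99, 4.11 and 3.96 RPKM. In the tail bud list, replicate 2 was the highest embryo in 7 of 9 genes at 1 RPKM and replicate 4 the lowest in 8, against 28.7% and 26.7% of all genes, with list deviations of 0.03, 0.25, −0.12 and −0.24. T (brachyury), which drives mesoderm formation in the tail bud, was at 6.29, 10.1, 6.00 and 3.92 RPKM, and Cdx2, which acts in axial elongation, at 3.46, 6.57, 3.40 and 2.49 RPKM. The myotome list was also lowest in replicate 2 (−0.06, −0.30, 0.20 and 0.03). The labels give 1 age for all embryos and no somite counts, and whether the embryos differed in stage was not tested.

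The liver bud and visceral endoderm list had the widest range among lists with at least 5 genes at 1 RPKM, with deviations of 0.35, 0.06, −0.64 and 0.34. Alb, the serum albumin gene, was at 0.568, 0.427, 0.0864 and 0.964 RPKM and Ttr at 1.28, 0.811, 0.401 and 2.53 RPKM, so replicate 3 was lowest in both, as for Afp. Only 6 of these 13 genes reached 1 RPKM. Amn and Cubn, which define visceral endoderm, were at 0.160 ± 0.0376 and 0.119 ± 0.0446 RPKM, and how much yolk sac was left on each embryo was not measured.

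The cholesterol list described later spanned 0.62, hypoxia response 0.44, fatty acid synthesis 0.42, immediate early 0.31, blood progenitor 0.28, and pluripotency and glycolysis 0.23 each. At the low end, deviations spanned 0.06 in heart, 0.04 in cell cycle and 0.04 in notochord genes, and between 0.08 and 0.13 in limb bud, neural progenitor, neural crest, imprinted and endothelial genes. Shh, the notochord and floor plate signal, was at 13.04, 12.6, 12.7 and 13.5 RPKM, and Nog, which encodes a BMP antagonist, at 3.36, 3.38, 3.45 and 3.39 RPKM. Tnni1 and Irx3 (37.1 ± 0.627 RPKM) were as level.

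**Figure D4:**
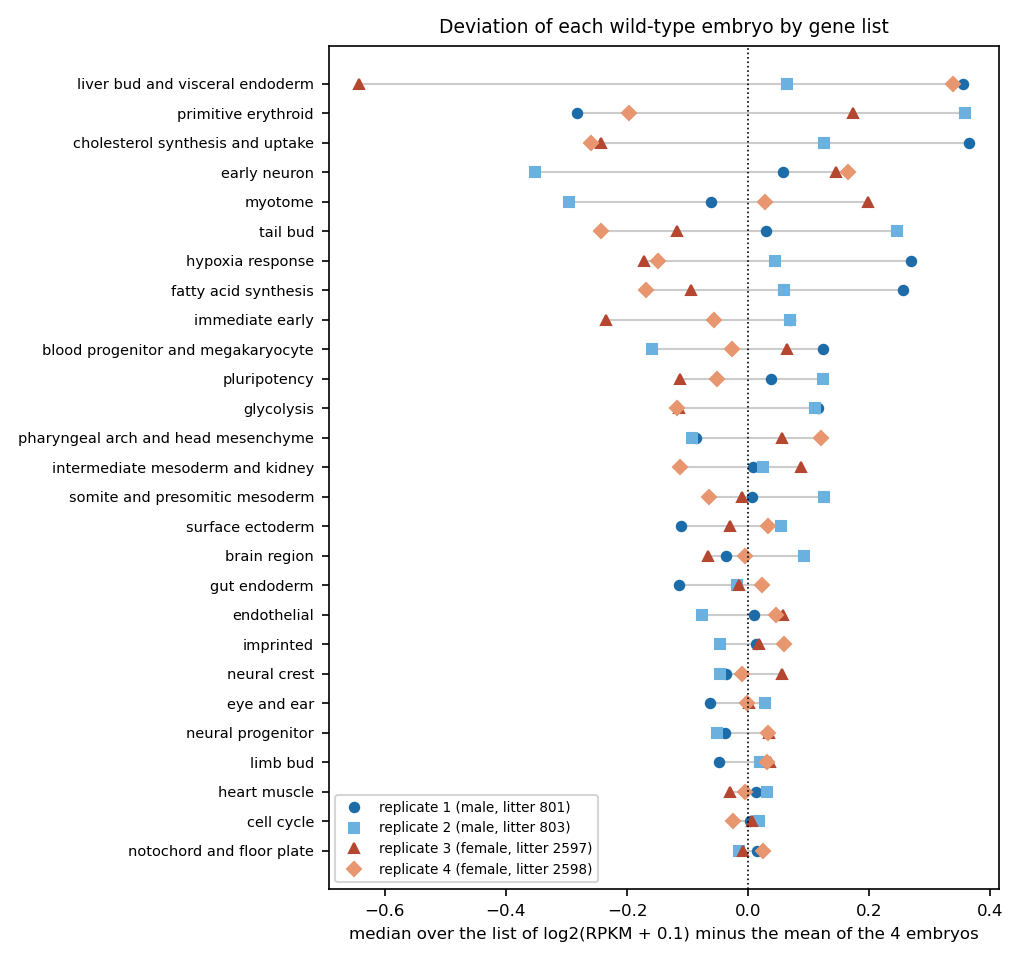
Median deviation of each wild-type embryo from the mean of the 4, in log2(RPKM + 0.1) (x), for each gene list with at least 5 genes at 1 RPKM (y, ordered by range); symbols mark the embryos. Liver and visceral endoderm, erythroid and sterol lists spread by more than 0.6, while heart, cell cycle and notochord lists span about 0.06 or less.

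Female and male wild-type embryos were compared in an edgeR quasi-likelihood fit over all 16 embryos with genotype by sex as groups. Of 16070 genes 73 passed an FDR of 0.05 (0.454%), with 33 higher in females (0.205%) and 40 lower (0.249%). Without replicate 3 the number was 44. Of the 73, 7 lie on the X chromosome and 4 on the Y chromosome by GENCODE position. Xist, which coats the inactive X chromosome (chromosome X from 102503972 to 102537573), was at 0.00968, 0.0184, 67.3 and 53.8 RPKM. Genes that escape X inactivation were moderately higher in females by this fit: Kdm6a by 0.55 ± 0.07 on the log2 scale (SE, edgeR FDR = 0.000702), Eif2s3x by 0.51 ± 0.05 and Kdm5c by 0.44 ± 0.05. The Y-linked genes Eif2s3y, Kdm5d, Uty and Ddx3y were between 6.85 and 28.7 RPKM in males and at most 0.0959 RPKM in females.

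The X chromosome as a whole did not stand apart. The median difference of its 456 genes at 1 RPKM was −0.01 on the log2 scale, against −0.00 for 11962 autosomal genes. It held 3.07% and 2.98% of counts in the males and 3.21% and 3.16% in the females.

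The other genes lie on other chromosomes, apart from Zfp264, which has no position in the annotation used and is named here after its values were seen. Because the sexes came from different litters, sex and litter cannot be told apart in these differences. In a further fit over all 16 embryos with litter, genotype and sex as terms, 14 of 16504 genes passed for sex (0.0848%) and 34 for litters 2597 and 2598 against 801 and 803 (0.206%). Of the 73 genes, 11 also passed for sex and 22 for litter, 1 of them for both, and 41 for neither. Nr1h5 fell by 4.46 ± 0.42 on the log2 scale in females (edgeR FDR = 0.00125), and passed for litter (edgeR FDR = 0.0260) but not for sex. Tbc1d13, a regulator of vesicle traffic named here after its values were seen, was at 27.5, 27.7, 15.2 and 15.1 RPKM, and also passed for litter (edgeR FDR = 0.00112). Ccl27a, a chemokine gene with near-identical copies next to it on chromosome 4, was at 0.174, 0.119, 3.01 and 3.57 RPKM and passed for neither, and its call was lost whichever wild-type embryo was left out, without replicates 1, 2, 3 or 4.

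Cholesterol and fatty acid genes made up 18 of the 73. These 2 lists of 26 and 7 genes were drawn up after the values were seen, so they are a description and no test. Of the cholesterol genes 16 were lower in females and none higher, with a median of −0.53 against −0.00 over all genes, and in 25 of 26 both males were above both females, as in 2584 of all 12647 genes at 1 RPKM (20.4%). Hmgcs1, which makes HMG-CoA for the pathway, was at 171, 133, 95.9 and 95.3 RPKM. Msmo1, a sterol demethylase, was at 67.3, 56.5, 33.8 and 32.1 RPKM and fell by 0.91 ± 0.11 on the log2 scale (edgeR FDR = 0.000891). Of the fatty acid genes Scd1 and Acly were lower in females, calls that were lost when some single embryos were left out. The 1 exception to the order of the embryos was Scap, which escorts the regulator SREBP2, at 18.5, 20.8, 18.8 and 19.4 RPKM.

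Among the 26 cholesterol genes 6 passed for litter and none for sex. Their summed RPKM had a CV of 22.7% in wild type, 10.9% in null, 1.93% in transgenic and 8.06% in null transgenic embryos. Only the wild-type embryos hold no littermates. The sums were 1103, 927, 708 and 696 RPKM in wild-type replicates 1 to 4. They ran from 899 to 1133 in null, 704 to 735 in transgenic and 710 to 834 RPKM in null transgenic embryos. The null embryos came from the litters of wild-type replicates 1 and 2, and the transgenic embryos from those of replicates 3 and 4. Null and transgenic embryos therefore differ in litter as well as in genotype. The difference between genotypes was not tested. Other lists moved with the same embryos: both males were above both females in 13 of 15 glycolysis genes at 1 RPKM (Ldha was at 972, 974, 751 and 775 RPKM), and the hypoxia response list deviated by 0.27, 0.04, −0.17 and −0.15. The immediate early gene Fos, which many stimuli switch on rapidly, was at 4.96, 2.66, 0.718 and 0.910 RPKM and Fosb at 1.52, 0.277, 0.0707 and 0.109 RPKM. The list they belong to differed less, with sums of 111, 105, 91.6 and 98.9 RPKM. Of its 8 genes at 1 RPKM, 5 had both males above both females and 1 had both females above both males. The part of these lists and genes in the difference between the embryos was not tested. The number of genes called in the cholesterol and fatty acid lists, 18 with all embryos, was 9 without replicate 1, 25 without replicate 2, 9 without replicate 3 and 8 without replicate 4.

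**Figure D5:**
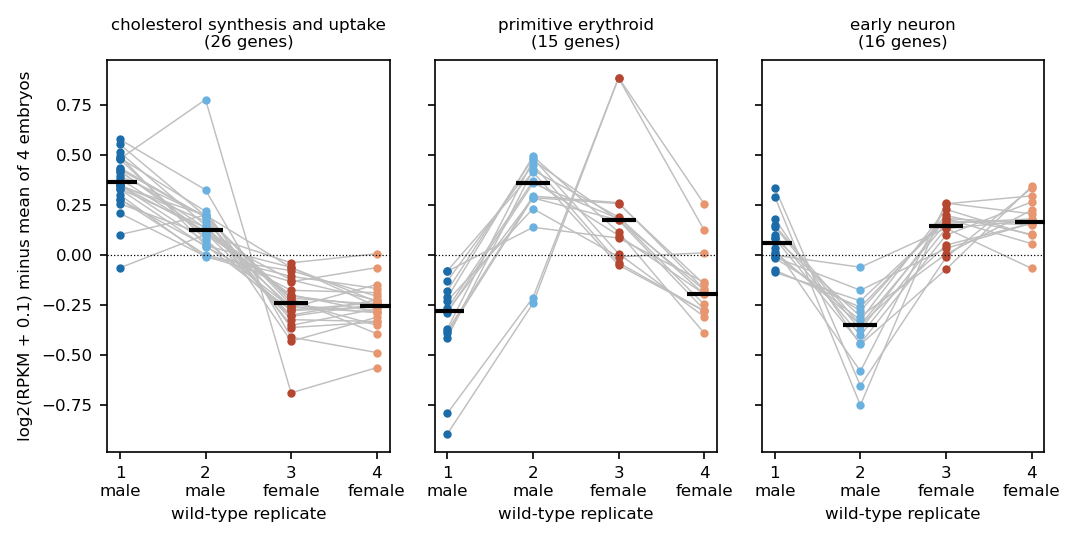
Each gene's log2(RPKM + 0.1) minus its mean over the 4 wild-type embryos (y) by embryo (x, which has no order beyond sex), for 26 cholesterol, 15 primitive erythroid and 16 early neuron genes; thin lines join a gene and black bars are medians. Cholesterol genes separate replicates 1 and 2 from replicates 3 and 4 (medians 0.36 and 0.13 against −0.24 and −0.26). These pairs differ both in sex and in litters, which cannot be told apart here. The erythroid medians are higher in replicates 2 and 3 than in 1 and 4, and neuronal genes set replicate 2 apart.

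The wild-type baseline was shared by the other genotypes to a large degree. Of the 12647 genes at a mean of 1 RPKM in wild type, 12467 also reached it in null, 12507 in transgenic and 12460 in null transgenic embryos. The summed RPKM of heart genes had a CV of 2.71% in wild type, 8.68% in null, 25.2% in transgenic and 6.71% in null transgenic embryos. Only the wild-type embryos hold no littermates, and the difference was not tested.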

How the data were processed

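RNA-sequencing of 16 whole E9.5 embryos was used, of which the 4 wild-type embryos are described. The authors aligned paired-end reads to mm39 with Rsubread and deposited counts, whole reads per gene without normalization, with gene lengths. The submitters' processing notes name featureCounts, whereas the annotation, strand setting and handling of shared reads are not given in the sources used here. Replicates are separate embryos. Total counts were between 14407277 and 23224367 per wild-type embryo, which limits the precision of genes with few counts.

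From the deposited counts, RPKM were computed with TMM library sizes in edgeR 4.0.16 (R 4.3.3) and the deposited lengths. Genes at 1 RPKM or more were called detected. Spread was tested per gene with a chi-square test of the 4 counts (mean of at least 10). Sex and litter were tested with edgeR's robust quasi-likelihood fits over all 16 embryos after filterByExpr (minimum count 10), with Benjamini-Hochberg FDR of 0.05. Both tests were tested on simulated data. A pseudocount of 0.1 RPKM was used for log2 deviations, with medians over all genes of a list. Positions come from GENCODE on GRCm39 by symbol (25282 of 26411 genes matched), gene classes from RefSeq by Entrez identifier (26359 matched).

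Genes were named by rule: the 25 of highest mean RPKM, in each list or class the 4 of highest mean RPKM and up to 3 with at most 3 counts in every embryo, the 15 of largest and 8 of smallest CV at 5 RPKM and 200 counts or more, the 15 largest differences between sexes, and genes of the lists. Members, lists and tests were chosen with earlier results of these data known. Alternatives were DESeq2 1.42.0 and its size factors, total counts, TPM, other thresholds and filters, fewer samples, and each embryo left out. Some genes that the rule names are not reported here.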

Additional observations from a re-analysis of the deposited data

Results flagged for a closer look

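Of 96 values over the 4 embryos (genes of highest level or largest CV, summed RPKM of lists and classes, and library features), 7 had 1 embryo so far from the others that its gap, as a share of the range, exceeded Dixon's 95% critical value for 4 samples. Chance flags about 1 in 20 groups, but not at that rate here for genes such as Tcfl5 and Gm8615, which were chosen for a large CV over the same embryos. Replicate 2 was the high embryo for Mir6236 (6890 RPKM against at most 5600, gap 0.935), for Tcfl5 (39.9 RPKM against at most 5.63, gap 0.898), for the summed microRNA genes, which Mir6236 dominates (9646 RPKM, gap 0.873), and for the summed surface ectoderm genes (122 RPKM against at most 109, gap 0.856). Replicate 3 was the low embryo for Gm8615 (2.59 RPKM against at least 8.63, gap 0.897). Replicate 4 was the low embryo for Tubb5 (1293 RPKM against at least 1314, gap 0.928) and for the summed intermediate mesoderm genes (41.8 RPKM against at least 44.5, gap 0.850), although both differences are small beside the levels.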

How the results depend on the processing

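The number of genes detected in wild type stayed within 1.5 times of 12109 under every library size, threshold and left-out embryo tried (9977 at 3 RPKM, 13605 with TPM, and 12188 to 12227 with 1 embryo left out), and the RPKM share of the 25 highest genes was between 11.2% and 11.5%. The number of genes varying beyond counting error was 3507 to 4638 with 1 embryo left out and 3812 with counts scaled to the lowest depth. The dispersion in wild type, as biological coefficient of variation, was 8.50% without a filter, 6.23% with sex as a term and 6.69% to 7.70% with 1 embryo left out. For female against male embryos, 115 genes passed in DESeq2, 364 without a filter, 39 at an FDR of 0.01, 59 in the 4 wild-type embryos alone and 44 to 70 with 1 wild-type embryo left out, and all 73 genes were among those called by DESeq2 and without a filter. The number for sex was 26 in DESeq2, and that for litter 105 in DESeq2 and 73 without a filter. The cause of these differences was not tested. The erythroid deviation range was 0.64 with DESeq2 size factors too. A limit of 1 RPKM could not change it, because all 15 genes reach that level, and it was not computed with embryos left out. Among single genes and lists, 2138 values were labelled unchanged, 55 calls were lost, 21 were gained, 55 values moved and none reversed. The unchanged values include mean levels of genes with 1 embryo left out. Those were compared with the SD of the 4 embryos, which leaving out 1 of them cannot exceed, so they say nothing on stability. No paired analysis was possible because the wild-type females (replicates 3 and 4) and males (replicates 1 and 2) share no litter. Depth limits genes below about 0.206 RPKM per 1000 bases.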

Other observations

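Genes that differed between the female and male wild-type embryos were unevenly placed. Chromosome 4 held 14 of the 73 (19.2%) and 6.15% of the genes tested, a description for which no test was made. The chromosome and the genes named on it were singled out after the values were seen. Genes of this chromosome differed in direction: Ccl27a (4.44 on the log2 scale, female minus male), Tmem8b (0.88) and Tdrd7 (0.63) were higher in females, whereas Gm2192 (−4.37) was lower. Further along, the E3 ligase adaptor gene Klhl9 (chromosome 4 of GRCm39 from 88636529 to 88640702) was at 25.8, 24.9, 52.5 and 47.1 RPKM in replicates 1 to 4. Chromosome 1 held none of the 73 among 910 tested genes.

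Keratin and collagen genes gave further levels of the embryo's epithelia and matrix. Krt7 and Krt19, keratins of simple epithelia, were at 11.9 and 10.3 RPKM. Of 44 collagen genes 29 reached 1 RPKM, led by Col3a1 (102), Col4a1 of basement membranes (87.0) and Col2a1 of the notochord and early cartilage (86.3 RPKM). Krt15 was at 1.64, 1.63, 0.233 and 0.438 RPKM.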
